A study of Mus musculus with 36 samples.

Results

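The nuclear genes of oxidative phosphorylation were followed across RNA-seq libraries of mouse CD4+ T cells. They were taken by gene name (symbols beginning with Nduf followed by a, b, c, s or v and a number, Sdha to Sdhd, Uqcr, Cox4 to Cox8, and Atp5), and names marked -ps as pseudogenes were left out, which gave 91 of the 56748 genes of the table. Of these, 40 belong to complex I, 4 to complex II, 8 to complex III, 21 to complex IV and 18 to complex V. The study asked how heterochromatin protein 1 (HP1) shapes the response of conventional CD4+ T cells (Tconv) to regulatory T cells (Treg). It compared 2 mouse lines, 2 genotypes and 3 conditions, in 12 groups of 3 libraries, except that HP1g KO Tconv with Treg is represented here by 2.

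In the HP1a line, KO cells lacked Cbx5, which encodes HP1a, in all tissues after a floxed allele had been excised by CMV-cre, and WT cells came from littermates. In the HP1g line, KO cells carried floxed Cbx3, which encodes HP1g, with Cd4-cre, so that deletion was restricted to T cells, and WT cells came from floxed littermates without Cre. Both lines were kept on a mixed 129/Sv and C57BL/6 background, and donors were sex-matched littermates of 6 to 12 weeks. Naive CD4+ T cells were isolated from spleen by magnetic depletion of other cells and were not transferred. Tconv were naive cells of the same 4 donor types, recovered 3 weeks after injection into lethally irradiated C57BL/6 hosts that received C57BL/6 and B6D2F1 bone marrow, and sorted as CD4+ TCR Vb6+ cells, which recognise a superantigen of the B6D2F1 graft. For Tconv with Treg, WT Treg expanded in culture had been injected together with the Tconv. Treg were WT in every group, so genotype refers to the Tconv alone.

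Oxidative phosphorylation is carried out in the inner mitochondrial membrane. Complexes I and II pass electrons from NADH and succinate to coenzyme Q, complex III passes them to cytochrome c, complex IV reduces oxygen, and complex V, the ATP synthase, uses the proton gradient so formed. Complexes I, III, IV and V are assembled from subunits of the nuclear and the mitochondrial genome, whereas complex II is nuclear only. Naive T cells are quiescent and have small mitochondria, and activated T cells enlarge their mitochondrial mass while they also raise glycolysis.

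The promoters of 4 members are shown because these genes were at the ends of the activation comparison described below or, for Ndufa11, because it rose in 3 of 4 such comparisons and carries a clear motif. Each sequence is the 250 bases before the annotated start, 5′ to 3′, from RefSeq on GRCm38.p6. Capitals mark a match to GCGCNTGCG, a motif bound by NRF1, a transcription factor known to act on genes of the respiratory chain. Cox5a lies at chr9:57520982-57521231 on the plus strand, Ndufb7 at chr8:83566508-83566757 on the plus strand, Ndufa11 at chr17:56717512-56717761 on the plus strand, and Cox7a2l at chr17:83514334-83514583 on the minus strand.
Cox5a: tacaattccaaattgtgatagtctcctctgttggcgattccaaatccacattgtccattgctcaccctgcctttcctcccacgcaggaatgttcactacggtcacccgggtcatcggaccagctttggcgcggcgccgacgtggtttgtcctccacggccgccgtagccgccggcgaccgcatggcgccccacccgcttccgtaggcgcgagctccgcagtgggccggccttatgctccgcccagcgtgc
Ndufb7: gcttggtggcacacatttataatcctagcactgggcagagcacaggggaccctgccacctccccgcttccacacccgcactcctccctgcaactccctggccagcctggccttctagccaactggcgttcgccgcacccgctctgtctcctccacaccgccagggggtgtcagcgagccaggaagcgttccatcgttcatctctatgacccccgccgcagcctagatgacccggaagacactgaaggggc
Ndufa11: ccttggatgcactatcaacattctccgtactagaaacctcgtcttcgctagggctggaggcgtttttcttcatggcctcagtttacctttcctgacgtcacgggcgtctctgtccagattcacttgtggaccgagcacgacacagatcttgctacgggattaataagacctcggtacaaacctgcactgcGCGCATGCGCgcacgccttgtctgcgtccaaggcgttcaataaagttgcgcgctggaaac
Cox7a2l: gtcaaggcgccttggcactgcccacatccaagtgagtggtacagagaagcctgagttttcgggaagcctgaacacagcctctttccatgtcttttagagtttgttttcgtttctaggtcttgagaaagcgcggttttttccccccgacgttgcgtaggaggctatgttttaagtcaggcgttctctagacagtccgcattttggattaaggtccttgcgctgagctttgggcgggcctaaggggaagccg
The match in Ndufa11 reads the same on both strands, and the windows of Cox5a, Ndufb7 and Cox7a2l hold none of the 4 motifs searched.

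Promoter windows of 250 bases before to 50 after the start were found for 69 member symbols (74 windows, as some genes have more than 1 start). GCGCNTGCG, searched on both strands, was present in 25 of them (33.8%) and in 6.31% of all 32851 promoter windows of the same length. AAGATGGCG, bound by YY1, was present in 9.46% of member windows and 1.4% of all windows. TNAAGGTCA, bound by estrogen-related receptors, was present in 4.05% and 1.28%, and CCGGAAGT, bound by ETS factors, in 6.76% and 3.89%. These are counts of letters in a window and do not mark bound sites. The windows of all genes were not matched to those of members in base content or expression, so the shares are not shown to be particular to the members.

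The libraries held 37029477 to 63042165 estimated counts (median 46844629), and the 91 genes took 0.843 to 1.71% of them (median 0.989%). The targeted genes followed the labels, with group means of Cbx5 of 10.9 to 18 CPM (counts scaled to library size, with TMM factors) in HP1a KO and 22.3 to 47.4 CPM in HP1a WT groups, and of Cbx3 of 61.0 to 71.4 CPM in HP1g KO and 88.3 to 141.0 CPM in HP1g WT groups. T cell markers (Cd3e, Cd3d, Cd4, Trac and Lck) summed to 4783.6 to 7687.0 CPM in the libraries used. The labels do not say whether the replicates of a group came from separate animals, so p-values measure only the spread between libraries, which may be technical. Replicate 3 of HP1g KO Tconv with Treg, which the study left out for its quality, had a summed member level of 2065.4 CPM against 8275.0 to 17974.2 CPM in the 35 others, and it was not used.

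Most members were measured well. Of the 91, 77 passed the filter on low counts in every comparison, 5 in some (Cox6a2, Cox6b2, Cox6c2, Cox7a1 and Ndufb4c) and 9 in none (Cox4i2, Cox7b2, Cox8b, Cox8c, Ndufa4l2, Ndufa11b, Ndufb11b, Ndufs6b and a second gene named Atp5o). Of these 14, Cox6c2, Ndufa11b, Ndufb4c and Ndufs6b are annotated as pseudogenes. Cox7b2 and Cox8b had 0 counts in every library, which allows up to 0.0476 to 0.081 CPM per library (3 counts, counting error only). Small subunits with near-identical pseudogenes may have lost or gained reads in the authors' quantification.

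The complexes contain subunits with tissue-specific copies, and in these cells 1 copy prevailed in most of them. Levels between genes are given as mean CPM over the 35 libraries per kilobase of all annotated exons, a length that exceeds that of the canonical transcript by a median factor of 2.41. For complex IV, Cox4i1 had 80.9 CPM per kb and Cox4i2, the copy of lung and hypoxic cells, 0.0142. Cox6a1 had 285.7 CPM per kb and its heart and muscle copy Cox6a2 had 0.324. Cox8a had 186.3 CPM per kb, while the muscle copy Cox8b was at 0 and the testis copy Cox8c at 0.0012. Cox6b1 had 77.7 and its testis copy Cox6b2 0.382 CPM per kb, and Cox7b had 25.1 CPM per kb where Cox7b2 was at 0. Ndufa4, a complex IV subunit despite its name, had 16.7 CPM per kb and Ndufa4l2, known as a hypoxia-induced gene, 0.00264. The Cox7a family was spread more evenly, with 18.2 CPM per kb for Cox7a2, 10.3 for Cox7a2l and 0.283 for the muscle copy Cox7a1. The 3 genes for the c subunit of ATP synthase, which encode the same mature protein, were all present, with 97.5 CPM per kb for Atp5g3, 20.4 for Atp5g1 and 12.4 for Atp5g2. Per kb of the canonical transcript these were 260.1, 200.7 and 110.5, so their spacing depends on the length used.

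The 5 members with the highest level per kilobase of exons were Cox6a1 (285.7 CPM per kb), the catalytic β subunit gene of ATP synthase Atp5b (213.4), Cox8a (186.3), the α subunit gene Atp5a1 (162.3) and the complex III subunit gene Uqcrb (156.6). The order depends on the length used. Per kilobase of the canonical transcript, Atp5b came first with 512.9 CPM per kb, ahead of Cox6a1 (356.3), Cox4i1 (324.9), Cox6c (320.4) and Cox8a (294.6).

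Summed over the 91 genes, naive cells of the HP1a line had 8357.7, 9384.9 and 9583.9 CPM in WT and 8872.6, 9067.3 and 9378.5 CPM in KO. HP1a WT Tconv had 11097.8, 12251.9 and 12281.3 CPM and HP1a KO Tconv 10717.2, 11119.2 and 11156.6 CPM. In both genotypes of this line every Tconv library lay above every naive library. In the HP1g line, WT naive libraries had 9197.2, 17974.2 and 9712.9 CPM for replicates 1, 2 and 3, and WT Tconv had 9407.9, 9581.0 and 10454.6 CPM, so that the groups overlapped. HP1g KO naive cells had 8275.0, 9228.8 and 10176.5 CPM and KO Tconv 8839.0, 9762.5 and 10372.6 CPM, which overlapped as well. With Treg, Tconv had 11600.3, 12202.5 and 16854.2 CPM in HP1a WT, 10364.5, 10954.3 and 11735.0 in HP1a KO, 9069.2, 10049.3 and 10214.4 in HP1g WT, and 9178.7 and 11243.7 in HP1g KO.

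**Figure D1:**
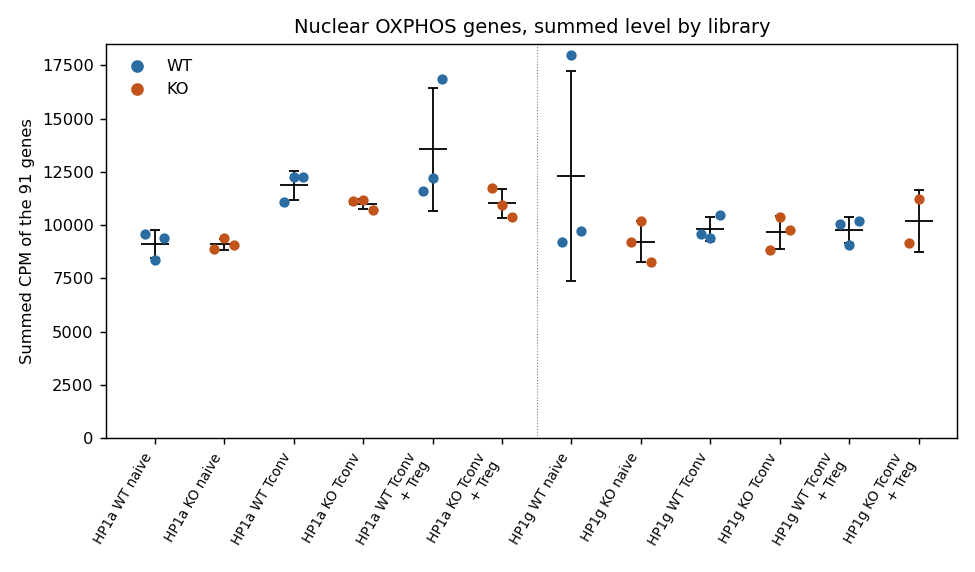
Summed level of the 91 nuclear oxidative phosphorylation genes, in CPM, in each of the 35 libraries by group, with WT in blue, KO in orange, and lines for the mean ± SD. All 6 HP1a Tconv libraries lie above all 6 HP1a naive libraries, and HP1g WT naive replicate 2 (17974.2 CPM) and HP1a WT Tconv with Treg replicate 3 (16854.2 CPM) lie above all others.

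Both of these libraries stood apart from the others of their group, and the main results that rest on them are given with and without them. HP1g WT naive replicate 2 had 1.9 times the mean of the 2 other libraries in summed level, and 75 of the 77 members at 5 CPM or more were higher in it, with a median ratio of 2.27 and a range from 0.931 (Ndufs1) to 3 (Ndufa12). HP1a WT Tconv with Treg replicate 3 had 1.42 times the mean of the others, with 68 of 77 members higher, a median ratio of 1.71 and a range from 0.502 (Sdha) to 2.4 (Ndufb1). Other short transcripts were also higher in both. Genes with a canonical transcript under 1 kb summed to 1.99 times the mean of the others in the naive library and 1.92 times in the Treg library, and those over 5 kb to 0.832 and 0.923 times. Cytosolic ribosomal protein genes were at 1.84 and 1.73 times, and mitochondrially encoded genes at 1.64 and 1.87 times. The part of transcript length or RNA quality in these values was not tested.

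Activation by the allogeneic graft was addressed by comparing Tconv with naive cells in each line and genotype, 4 comparisons that share no library. In HP1a WT cells the nuclear oxidative phosphorylation genes rose: of 79 tested, 60 were higher in Tconv, 1 was lower and 18 were not called. The largest rises were those of Cox5a, a complex IV subunit gene (2.23-fold, log2 fold change 1.16 ± 0.09 SE, adjusted p = 3.05e-05), and Ndufb7, an accessory subunit gene of complex I (log2 1.02, adjusted p = 0.000137). In HP1a KO cells 52 of 78 members were higher and 2 lower, in HP1g KO cells 16 of 78 were higher and 1 lower, and in HP1g WT cells 0 of 78 were higher and 1 lower. Calls were made with edgeR's quasi-likelihood test at an adjusted p under 0.05, after Benjamini-Hochberg adjustment over every gene tested.

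These counts stand against a large change of the whole transcriptome. In HP1a WT, higher calls made up 24.3% of all genes tested and lower calls 21.4%. In HP1a KO the shares were 22.9% and 17.8%, in HP1g WT 18.3% and 13.2%, and in HP1g KO 23.4% and 17.7%. The members' share of higher calls was thus above that of all genes in both HP1a genotypes, near it in HP1g KO (16 of 78) and below it in HP1g WT. This depended on the libraries fitted. With all 35 libraries in 1 fit, members called in either direction made up 30.5% in HP1a WT and 11% in HP1a KO, against 31.9% and 27.7% of all genes. Without the 2 libraries that stand apart, a fit of the other 33 gave 74.4% and 58.5%, against 40.4% and 36.1% of all genes. The 17 HP1g KO calls, both directions counted, became 8 without naive replicate 3, 9 without naive replicate 1 or Tconv replicate 2, 11 without Tconv replicate 3 and 32 without Tconv replicate 1. In HP1g WT, 4 members had an unadjusted p under 0.05, of which 1 was higher in Tconv, and DESeq2 called 1 member, which was lower. Of the 15812 genes tested there, 6717 had an unadjusted p under 0.05 and DESeq2 called 5919.

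The median log2 fold change of the members was 0.45 in HP1a WT (all genes −0.04), 0.36 in HP1a KO (all genes −0.01), −0.37 in HP1g WT (all genes −0.03) and 0.15 in HP1g KO (all genes 0.02). The HP1g WT value rested on 1 library. Without HP1g WT naive replicate 2 the median was 0.09 (all genes 0.03), and 12 of 78 members were called higher and 4 lower, where 22.8% and 17.4% of all genes were called. Without HP1g KO naive replicate 3 the median of HP1g KO was 0.05, and leaving out any library kept it at 0.39 to 0.51 in HP1a WT and 0.33 to 0.38 in HP1a KO. With the fold threshold of the study (log2 above 1 in size) 2 members were called in HP1a WT (Cox5a and Ndufb7), 0 in HP1a KO, 1 in HP1g WT (Cox7a2l) and 1 in HP1g KO (Cox6b2), against 23.1%, 19.7%, 23.5% and 23.1% of all genes. In HP1a KO, 60 members had an unadjusted p under 0.05 by edgeR and DESeq2 called 54 when no fold threshold was set. The corresponding numbers for the 15773 genes tested were 7711 and 7087.

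**Figure D2:**
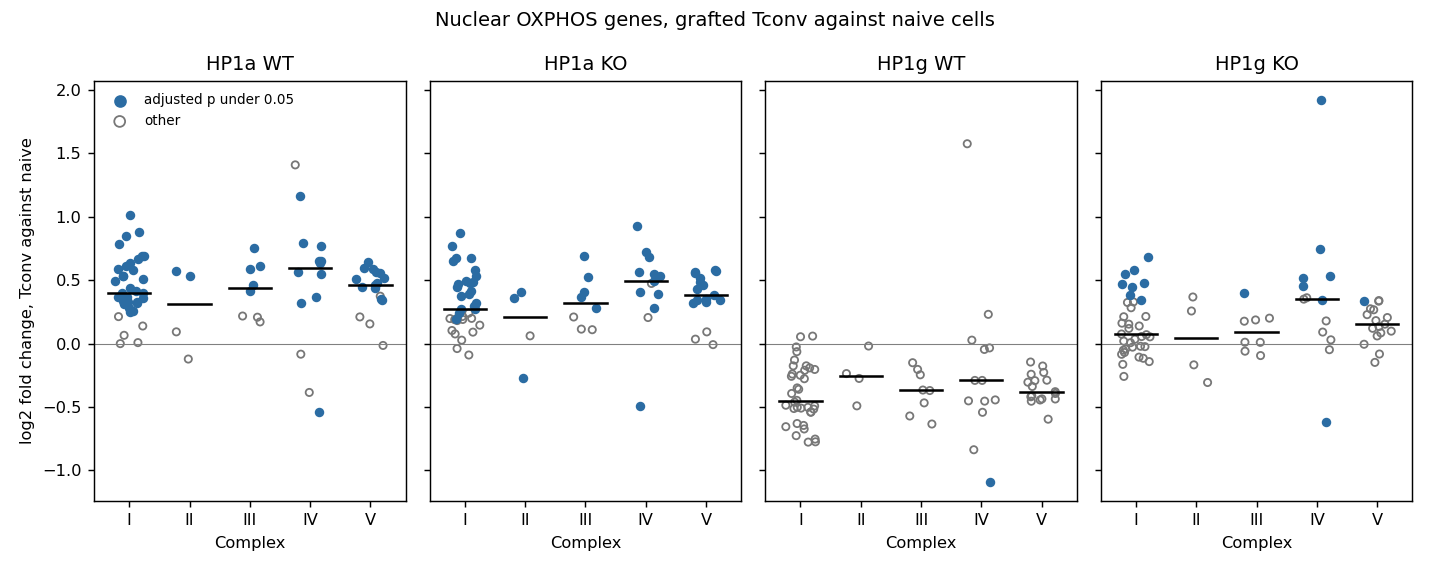
Log2 fold change of Tconv against naive cells for each tested member, by complex (I to V), in the 4 comparisons. Most points lie above 0 in HP1a WT and KO in every complex, with medians over all members of 0.45 and 0.36, and most lie below 0 in HP1g WT, where the median is −0.37.

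In the HP1a line members of every complex were called higher, and complex II was the least clear case. In complex I, 30 of 36 tested genes were higher in HP1a WT Tconv (median log2 0.40) and 21 of 36 in HP1a KO. Within it, the 7 core subunits tested, which carry the electron path, gave 4 higher calls and a median of 0.25, and the 29 accessory subunits gave 26 and a median of 0.44. Complex II gave 2 of 4 in each genotype, with Sdha called lower in KO. Complex III gave 5 of 8 in each, complex IV 10 of 14 in WT and 10 of 13 in KO with 1 gene lower in each, and complex V 13 and 14 of 17. The highest median among complexes in HP1a WT was that of complex IV, 0.60. In HP1g KO, 8 of the 16 calls were in complex I and 6 in complex IV, with 1 each in complexes III and V and 0 in complex II (of 4 tested). The 12 higher calls of HP1g WT without naive replicate 2 comprised 6 in complex I, 4 in complex IV and 1 each in complexes II and V.

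Summed by complex, HP1a WT cells went from 2434.1 ± 166.1 to 3293.5 ± 200.6 CPM for complex I (SD, n = 3), and from 1459.5 ± 159.5 to 2045.6 ± 111.3 CPM for complex IV. Complex V went from 3617.6 ± 262.9 to 4588.5 ± 272.3 CPM and complex II from 723.7 ± 33.9 to 801.9 ± 41.9 CPM. In HP1a KO cells complex II was at 740.8 ± 47.8 CPM in naive cells and 735.5 ± 20.1 CPM in Tconv, a difference within the spread between libraries.

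Short members had the higher values. Of members with a canonical transcript under 1 kb, 31 of 38 were higher in HP1a WT (median log2 0.54), against 29 of 41 of those of 1 kb or more (0.40), and in HP1g KO 12 of 37 against 4 of 41. All genes with a canonical transcript under 1 kb, members included, summed to 71093.9 ± 6881.5 CPM in HP1a WT naive cells and 84037.5 ± 5290.4 CPM in Tconv (SD, n = 3). In HP1g KO they summed to 70307.7 ± 6138.5 and 70938.0 ± 1806.7 CPM. The calls of short members were not set beside those of other short genes. The part of transcript length in the members' values was not tested.

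The overlap between lines and genotypes was read from the calls. The members higher in HP1a WT and HP1a KO shared 51 genes, 85% of the former and 98.1% of the latter. Of the 16 members higher in HP1g KO, 15 (93.8%) were higher in both HP1a genotypes too. These overlaps were not set beside those of all genes, so they are not shown to be particular to the members. These 15 were Ndufa1, Ndufa11, Ndufa13, Ndufb1, Ndufb7, Ndufb8, Ndufb9 and Ndufs8 of complex I, Uqcr11 of complex III, Cox5a, Cox5b, Cox6c, Cox7b and Cox8a of complex IV, and Atp5l of complex V. Cox7a2l was the member lower in all 4 comparisons.

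Cox5a (GRCm39 chr9:57428456-57440678, plus strand) encodes a subunit of complex IV. In HP1a WT it was at 105.5, 91.4 and 104.7 CPM in naive cells and 211.8, 219.8 and 241.6 CPM in Tconv, and in HP1a KO at 93.9, 105.5 and 97.8 against 211.9, 177.0 and 170.5 CPM. In HP1g KO it was at 99.1, 109.7 and 87.7 against 121.1, 186.7 and 180.0 CPM, again with no overlap. In HP1g WT, naive replicate 2 (225.8 CPM) lay above all 3 Tconv libraries (144.5, 161.4 and 193.7 CPM), and the others (96.6 and 102.6 CPM) below. The log2 fold change was 0.92 ± 0.10 SE in HP1a KO (adjusted p = 0.000349) and 0.74 ± 0.17 in HP1g KO (adjusted p = 0.00942 by edgeR's quasi-likelihood test). The HP1g KO call was lost without naive replicate 3 (0.65, adjusted p = 0.0573). In HP1g WT the log2 fold change was 0.23 ± 0.34 (adjusted p = 0.635), and 0.75 without naive replicate 2 (adjusted p = 0.00668).

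Ndufb7 (GRCm39 chr8:84293300-84298255, plus strand) encodes an accessory subunit of complex I that lies on the intermembrane space side. It was at 56.5, 52.6 and 62.6 CPM in HP1a WT naive cells and 104.8, 111.4 and 130.5 CPM in Tconv. In the other groups it went from 54.4, 59.9 and 55.5 to 108.0, 101.2 and 98.1 CPM in HP1a KO, and from 59, 58.3 and 46.4 to 79.3, 91 and 88 CPM in HP1g KO. The groups of these 3 comparisons did not overlap, whereas in HP1g WT naive replicate 2, at 148.4 CPM, was above Tconv (81.3, 86 and 100.4 CPM) and replicates 1 and 3, at 51.7 and 56.1 CPM, were below. The log2 fold changes were 1.02, 0.87, 0.68 and 0.06 in HP1a WT, HP1a KO, HP1g KO and HP1g WT, the last 0.74 without naive replicate 2.

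Ndufa1 (GRCm39 chrX:36451241-36454849, minus strand), a small membrane subunit gene of complex I, was at 63.3, 51.5 and 62.4 CPM in HP1a WT naive cells and 98.9, 114.7 and 111.1 CPM in Tconv. Its log2 fold change was 0.88 in HP1a WT, 0.76 in HP1a KO, 0.45 in HP1g KO and −0.18 in HP1g WT, where it was not called. Ndufb8 (GRCm39 chr19:44537011-44543939, minus strand), another accessory subunit gene of complex I, came after Cox5a and Ndufb7 in HP1g KO by log2 fold change (0.58, adjusted p = 0.00529 by edgeR's quasi-likelihood test). It was at 64.8, 72.5 and 58.9 CPM in HP1g KO naive cells and 83.7, 105.2 and 99.3 CPM in Tconv, with no overlap. Without naive replicate 2, the HP1g WT values became 0.51 for Ndufa1 and 0.53 for Ndufb8.

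Cox7a2l (GRCm39 chr17:83765970-83824759, minus strand) encodes the factor also known as SCAF1, which joins complex III to complex IV in a supercomplex. It was at 164.6, 131.0 and 147.4 CPM in HP1a WT naive cells and 98.6, 99.2 and 106.2 CPM in Tconv, and at 148.9, 141.6 and 139.8 against 105.9, 98.2 and 98.9 CPM in HP1a KO. In HP1g WT it was at 140.8, 259.1 and 142.9 against 77.6, 91.5 and 86.8 CPM, and in HP1g KO at 126.8, 143.1 and 112.8 against 87.6, 82.2 and 75.3 CPM. All Tconv libraries thus lay below all naive libraries of their line and genotype. It fell by 0.54 ± 0.10 SE on the log2 scale in HP1a WT (adjusted p = 0.00281), by 0.49 ± 0.07 in HP1a KO (0.00109), by 1.09 ± 0.26 in HP1g WT (0.0155) and by 0.62 ± 0.11 in HP1g KO (0.00202, all by edgeR's quasi-likelihood test). Without HP1g WT naive replicate 2 the log2 fold change there was −0.72 (adjusted p = 0.00139), and the HP1g WT call was lost when any 1 of the 3 Tconv replicates was left out (adjusted p = 0.056, 0.0512 and 0.0553 without replicates 1, 2 and 3).

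Sdha (GRCm39 chr13:74469359-74498436, minus strand), the flavoprotein gene of complex II that oxidises succinate, was the other member called lower with a mean of at least 5 CPM when all libraries of a comparison were used. It was at 383.7, 458.5 and 445.1 CPM in HP1a KO naive cells and 346.9, 332.5 and 378.0 CPM in Tconv, and fell by 0.27 on the log2 scale (adjusted p = 0.0495 by edgeR's quasi-likelihood test). Leaving out 1 library at a time, 5 of the 6 choices ended this call. In HP1g KO its log2 fold change was −0.31 (adjusted p = 0.0509) and in HP1a WT −0.12 (adjusted p = 0.305). In HP1g WT it was −0.28 (adjusted p = 0.175), and without naive replicate 2 it was called at −0.28 (adjusted p = 0.0212), as were Ndufa6 (−0.26) and Ndufs3 (−0.25), both of complex I and named after their values had been seen.

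**Figure D3:**
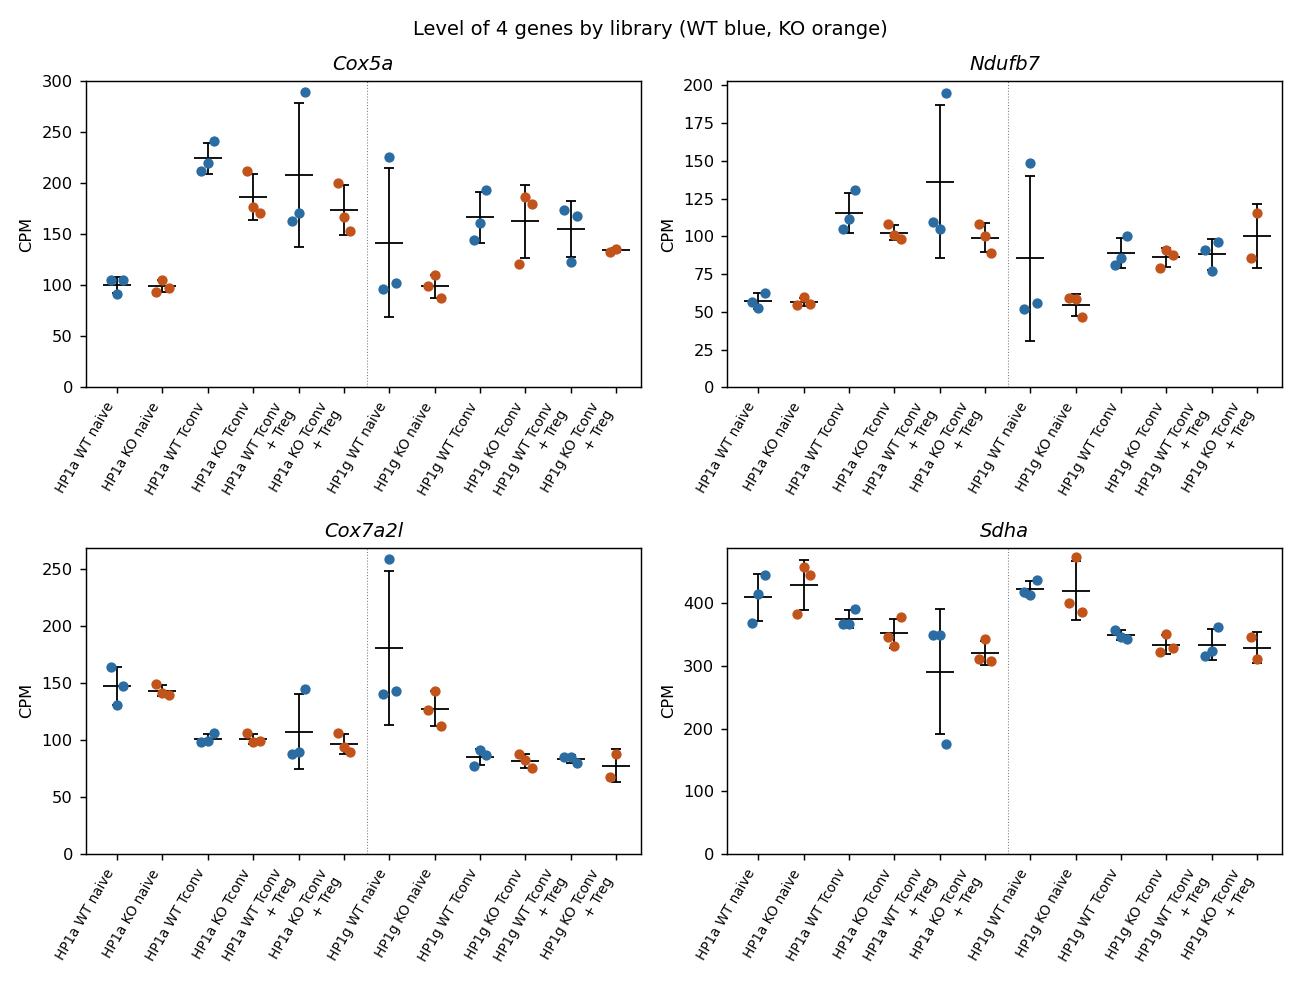
Level of Cox5a, Ndufb7, Cox7a2l and Sdha in CPM in each of the 35 libraries by group, with WT in blue, KO in orange, and lines for the mean ± SD. Without Treg, Cox5a and Ndufb7 are higher in every Tconv than in every naive library of the HP1a line, and Cox7a2l is lower in every Tconv library than in every naive library of its line and genotype.

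Large catalytic subunits moved little. The genes for the largest core subunit of complex I (Ndufs1), the α and β subunits of ATP synthase (Atp5a1 and Atp5b) and the Rieske protein of complex III (Uqcrfs1) were called in none of the 4 comparisons. In HP1a WT, Ndufs1 was at 119.1 ± 10.1 CPM in naive cells and 118.8 ± 2.67 CPM in Tconv (SD, n = 3), with a log2 fold change of 0.00. The log2 fold changes of Atp5b, Atp5a1 and Uqcrfs1 there were 0.21, 0.15 and 0.17 (adjusted p = 0.0919, 0.19 and 0.353 by edgeR's quasi-likelihood test). Among tissue-specific copies, Cox6b2 was called in HP1g KO (log2 1.92, adjusted p = 0.0179), at 0.14 CPM in naive cells and 0.544 CPM in Tconv.

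The naive and grafted cells differed in more than activation. Naive cells were fresh and magnetically isolated, and Tconv were sorted by flow cytometry from grafted hosts, so isolation and activation cannot be told apart. The labels number naive libraries apart from Tconv and do not say whether they were prepared together. As these are bulk samples, fewer cells of a type and less RNA per cell cannot be told apart either. B cell markers (6 genes, none at 0 throughout a condition) summed to 543.8 to 793.9 CPM in HP1a naive and 141.0 to 207.0 CPM in HP1a Tconv libraries, and to 580.3 to 890.9 against 90.6 to 164.6 CPM in the HP1g line. Most of this was Ighm, and the defining gene Ms4a1 had group means of at most 1.44 CPM. Erythroid markers (6 genes) summed to 37.2 to 178.1 against 1.8 to 768.9 CPM in the HP1a line and to 9.92 to 78.6 against 76.3 to 4973.8 CPM in the HP1g line. Myeloid markers (8 genes) summed to 8.16 to 11.8 against 5.59 to 130.8 CPM and to 4.96 to 11.5 against 23.6 to 402.1 CPM, and CD8 T or NK markers (4 genes) were at 30.2 CPM or less. The part of other cell types in the members' values was not tested.

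Other genes linked to the respiratory chain, outside the members, were taken from lists and were called in both directions. Of 46 assembly factor genes tested, 14 were higher and 4 lower in HP1a WT, 11 and 4 in HP1a KO, 0 and 6 in HP1g WT, and 6 and 10 in HP1g KO. The medians were 0.11, 0.06, −0.48 and −0.06. For this list and those that follow, higher and lower calls made up 24.3% and 21.4% of all genes in HP1a WT. The shares were 22.9% and 17.8% in HP1a KO, 18.3% and 13.2% in HP1g WT, and 23.4% and 17.7% in HP1g KO. Cox17, the copper chaperone of complex IV, rose in 3 of the comparisons (log2 1.19 in HP1a WT, 1.07 in HP1a KO and 1.03 in HP1g KO), and Uqcc2, an assembly factor of complex III, was at 1.18 in HP1a WT and 1.01 in HP1a KO. Lyrm7, a chaperone of the Rieske protein, fell by 1.31 in HP1a WT, by 1.15 in HP1a KO and by 1.22 in HP1g WT on the log2 scale. When HP1g WT naive replicate 2 was left out, the HP1g WT counts were 7 higher and 9 lower with a median of −0.08, Cox17 and Uqcc2 were called, both at 0.87, and Lyrm7 was at −1.0.

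The tricarboxylic acid cycle feeds electrons to complexes I and II. Of its 17 genes, 7 were higher and 3 lower in HP1a WT, 3 and 3 in HP1a KO, 1 and 2 in HP1g WT, and 2 and 4 in HP1g KO, with medians of 0.14, −0.04, −0.10 and −0.09. The isocitrate dehydrogenases parted. Idh3a, of the NAD-dependent enzyme, rose in all 4 comparisons (log2 1.28, 1.21, 0.93 and 1.15 in HP1a WT, HP1a KO, HP1g WT and HP1g KO), and Idh2, of the NADP-dependent enzyme, fell in all 4 (by 1.26, 1.23, 1.26 and 1.20). Without HP1g WT naive replicate 2 the HP1g WT counts were 3 and 3, and Idh3a and Idh2 had 1.15 and −1.22 there.

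Among 15 genes of coenzyme Q, cytochrome c and related carriers, 2 were higher and 1 lower in HP1a WT and in HP1a KO, 1 and 2 in HP1g WT, and 3 and 2 in HP1g KO. This list holds Cyc1 of complex III and Ndufab1 of complex I, subunit genes that the name rule of the members does not reach. Dnajc15, known as an inhibitor of complex I, had the largest rise of this list, from 53.5 ± 6.28 to 223.7 ± 27.5 CPM in HP1a WT (SD, n = 3). Its log2 fold change was 2.06 in HP1a WT, 1.78 in HP1a KO, 1.16 in HP1g WT and 1.36 in HP1g KO. Cycs, the gene of cytochrome c, rose by 0.88 in HP1a WT and 0.61 in HP1a KO on the log2 scale and had 0.11 in HP1g KO, where it was not called. Leaving out HP1g WT naive replicate 2, the counts in HP1g WT were 2 and 3, with Dnajc15 at 1.73 and Cycs called at 0.25.

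Genes of mitochondrial biogenesis and mitochondrial DNA upkeep were called lower more often than higher in all 4 comparisons. Of those tested (16 in HP1a WT and HP1g KO, 15 in the others), 0 were higher and 10 lower in HP1a WT, 1 and 9 in HP1a KO, 1 and 3 in HP1g WT, and 1 and 9 in HP1g KO, with medians of −0.35, −0.38, −0.37 and −0.64. Twnk, the mitochondrial DNA helicase, fell in all 4 comparisons (by 0.87, 0.65, 0.90 and 1.12 on the log2 scale), and the coactivator genes Pprc1 and Ppargc1b fell in HP1a WT (by 1.35 and 1.0) and HP1a KO (by 0.97 and 0.67). The coactivator Ppargc1a was called lower in HP1a WT, at 0.328 ± 0.0563 CPM in naive cells and 0 in Tconv. Without HP1g WT naive replicate 2, 1 of 16 genes was higher and 11 were lower in HP1g WT (median −0.43), with Twnk at −0.99.

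The median of the subunits encoded by mitochondrial DNA was below 0 in all 4 comparisons, and that of the nuclear ones in HP1g WT only. Of the 13 mitochondrially encoded genes, 0 were higher in any of the 4 comparisons by edgeR's quasi-likelihood test, and 10, 5, 4 and 5 were lower in HP1a WT, HP1a KO, HP1g WT and HP1g KO, with medians of −0.51, −0.33, −0.65 and −0.37. Of 78 mitochondrial ribosomal protein genes, 33 were higher and 5 lower in HP1a WT (median 0.26), 30 and 5 in HP1a KO (0.17), 0 and 9 in HP1g WT (−0.47) and 11 and 11 in HP1g KO (−0.05). Cytosolic ribosomal protein genes, which are as short as many members, had 3 of 90 higher and 61 lower in HP1a WT (−0.51), 3 and 67 of 89 in HP1a KO (−0.41), 1 and 73 of 90 in HP1g WT (−1.09) and 1 and 74 of 89 in HP1g KO (−0.71). Without HP1g WT naive replicate 2, the HP1g WT counts were 0 higher and 9 lower for the mitochondrially encoded genes (−0.37), 4 and 15 for the mitochondrial ribosome (−0.10) and 2 and 77 for the cytosolic ribosome (−0.72). Of 12 proliferation genes, 10 were higher in each comparison, with medians of 5.49, 5.73, 5.96 and 6.87 (HP1g WT 6.04 without that library).

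**Figure D4:**
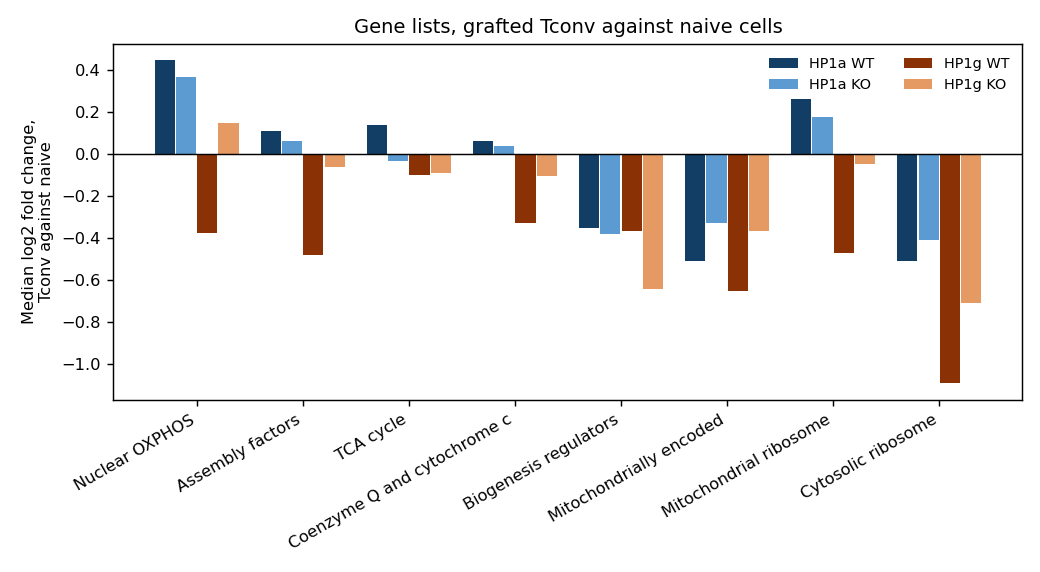
Median log2 fold change of Tconv against naive cells for the nuclear oxidative phosphorylation genes and 7 other gene lists, in the 4 comparisons. In HP1a WT the nuclear oxidative phosphorylation genes (0.45) and the mitochondrial ribosomal protein genes (0.26) lie above 0, and the mitochondrially encoded genes (−0.51), the biogenesis genes (−0.35) and the cytosolic ribosomal protein genes (−0.51) lie below it.

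The difference between the lines in the activation effect was tested by an interaction term. This test was added after the values had been seen. In WT cells 0 of 80 members tested were called by edgeR's quasi-likelihood test, where 0.0117% of all genes were, although 49 had an unadjusted p under 0.05 (DESeq2 called 0). The median difference, HP1g against HP1a, was −0.80 on the log2 scale, and −0.32 without HP1g WT naive replicate 2. In KO cells 0 of 78 were called, where 1.1% of all genes were, with 24 at an unadjusted p under 0.05, 0 called by DESeq2 and a median difference of −0.23 (−0.30 to −0.15 when any 1 library was left out). Of all genes tested, 3350 of 17107 in WT and 2742 of 17047 in KO had an unadjusted p under 0.05. DESeq2 called 422 and 963 genes. A member called in one line and not in the other was therefore not shown to differ between lines.

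The effect of Treg on Tconv was compared in each line and genotype, and no member was called by edgeR's quasi-likelihood test in any of the 4 comparisons. In HP1a WT, where 7.54% of all genes were called, 0 of 81 members were, with 12 at an unadjusted p under 0.05 and 4 called by DESeq2, and the median log2 fold change was 0.38 (all genes 0.03). That median was 0.08 without Treg replicate 3, and 8 members were then called, where 16.5% of all genes were. In HP1a KO the members called were 0 of 80 (0.756% of all genes), with 4 at an unadjusted p under 0.05 and 1 called by DESeq2, and the median was 0.05. In HP1g WT they were 0 of 78 (0.0126% of all genes), with 1 at an unadjusted p under 0.05, 0 called by DESeq2 and a median of 0.00. In HP1g KO they were 0 of 81 (0% of all genes), with 0 at an unadjusted p under 0.05, 0 called by DESeq2 and a median of 0.13, which became −0.04 without Treg replicate 1 and 0.26 without Treg replicate 2. Over all genes tested, an unadjusted p under 0.05 was found for 3514 of 15627 in HP1a WT and 2551 of 16133 in HP1a KO. In HP1g WT it was found for 1095 of 15903 and in HP1g KO for 1294 of 16991. DESeq2 called 2444, 1056, 83 and 324 genes in the same order. The paper states that Treg, at the ratio used in the HP1g experiment, did not repress the WT response effectively. Line and experiment, with its Treg ratio, cannot be told apart in these values.

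The 4 members that DESeq2 called in HP1a WT were named after their values had been seen. Ndufa10 and Ndufa9, accessory subunit genes of complex I, were lower with Treg. Ndufa10 was at 123.0, 122.8 and 133.8 CPM without and 93.8, 83.9 and 97.3 CPM with Treg, and Ndufa9 at 150.3, 153.5 and 155.2 against 114.0, 118.3 and 110.7 CPM. Neither gene's groups overlapped, and Treg replicate 3 did not stand apart in them. By edgeR's quasi-likelihood test Ndufa10 had a log2 fold change of −0.42 ± 0.14 SE (adjusted p = 0.116) and Ndufa9 of −0.38 ± 0.12 (adjusted p = 0.122). Without Treg replicate 3 both were called, at −0.48 and −0.37.

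Ndufa4 of complex IV and Uqcr10 of complex III were higher in all libraries with Treg. Ndufa4 was at 111.5, 143.7 and 101.8 CPM without and 179.9, 187.1 and 349.0 CPM with Treg, and Uqcr10 at 82.8, 91.8 and 90.8 against 110.0, 128.4 and 197.6 CPM, with Treg replicate 3 the highest for both. Their log2 fold changes were 1.05 (adjusted p = 0.0799 by edgeR's quasi-likelihood test) and 0.76 (adjusted p = 0.102). Without replicate 3 both were called, at 0.65 and 0.46, as were Cox5a (−0.40), Cox7c, Uqcrh and Atp5md. In Tconv with Treg of this group erythroid markers summed to 49.9 CPM in replicate 3 and 2.62 to 4.13 CPM in the others, and myeloid markers to 39.8 against 14.4 to 15.5 CPM. Their part in the result was not tested.

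Loss of either HP1 protein was compared in each condition, and no member was called in any of the 6 comparisons by edgeR's quasi-likelihood test. In naive cells of the HP1a line 0 of 78 were called (0% of all genes), 0 had an unadjusted p under 0.05 and DESeq2 called 0, with a median log2 fold change, KO against WT, of −0.02. In Tconv of the HP1a line 0 of 78 were called (0.122% of all genes), with 11 at an unadjusted p under 0.05, 0 called by DESeq2 and a median of −0.10. In that comparison 72 of the 78 log2 fold changes were below 0, and all 11 with an unadjusted p under 0.05 were lower in KO. The median of all genes tested there was 0.00. Members can move together within a library, as in the 2 that stand apart, so these counts are not separate results. With Treg, 0 of 81 were called (0.123% of all genes), with 10 at an unadjusted p under 0.05 and 0 called by DESeq2, and the median was −0.43, or −0.12 without WT replicate 3. Over all genes tested, an unadjusted p under 0.05 was found for 291 of 15549 in naive cells, 1324 of 15521 in Tconv and 1975 of 16256 with Treg. DESeq2 called 19, 197 and 854 genes in the same order.

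Erythroid, myeloid and T cell markers separated the same libraries of the HP1a line. In Tconv, erythroid markers summed to 1.8 to 3.48 CPM in WT and 26.6 to 768.9 CPM in KO, and myeloid markers to 5.59 to 5.87 against 11.1 to 130.8 CPM. T cell markers summed to 5634.7 to 6067.9 CPM in WT and 4945.6 to 5135.4 CPM in KO. None of these ranges overlapped. With Treg, WT and KO had 14.4 to 39.8 and 199.8 to 543.0 CPM of myeloid markers, 2.62 to 49.9 and 112.9 to 703.0 CPM of erythroid markers, and 6518.3 to 6782.8 and 5446.0 to 5636.4 CPM of T cell markers. B cell markers overlapped in both. CD8 T or NK markers overlapped in Tconv, at 7.9 to 13.8 CPM in WT and 10.8 to 17 CPM in KO. With Treg they were higher in WT, at 13 to 27.5 CPM against 7.92 to 11.8 CPM in KO. The part of other cell types in the members' values was not tested.

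Cox5a lay at the low end of the members in HP1a Tconv without Treg, where the lowest log2 fold change was −0.26 and the median −0.10. HP1a WT had 224.4 ± 15.4 CPM and HP1a KO 186.5 ± 22.2 CPM (SD, n = 3), the highest KO library (211.9 CPM) lying just above the lowest WT library (211.8 CPM). Its log2 fold change was −0.26 ± 0.10 SE (adjusted p = 0.554 by edgeR's quasi-likelihood test). Cox7a2l was at 101.3 ± 4.18 and 101.0 ± 4.22 CPM, a log2 fold change of 0.00.

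In the HP1g line, naive cells gave 0 of 77 called (0.00669% of all genes), 0 at an unadjusted p under 0.05 and 0 by DESeq2. The median was −0.50, and −0.05 without WT naive replicate 2. In Tconv 0 of 78 were called (0.0437% of all genes), with 1 at an unadjusted p under 0.05, 0 by DESeq2 and a median of 0.00. With Treg 0 of 81 were called (0% of all genes), with 2 at an unadjusted p under 0.05 and 1 called by DESeq2 (Cox6b2, log2 2.74). The median there was 0.13, and −0.06 or 0.26 when KO replicate 1 or 2 was left out. Over all genes tested, an unadjusted p under 0.05 was found for 863 of 14939 in naive cells, 1349 of 16015 in Tconv and 2028 of 17177 with Treg. DESeq2 called 57, 399 and 846 genes in the same order. Without KO replicate 2, edgeR called 1 member, Cox6b2, and 2.28% of all genes.

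**Figure D5:**
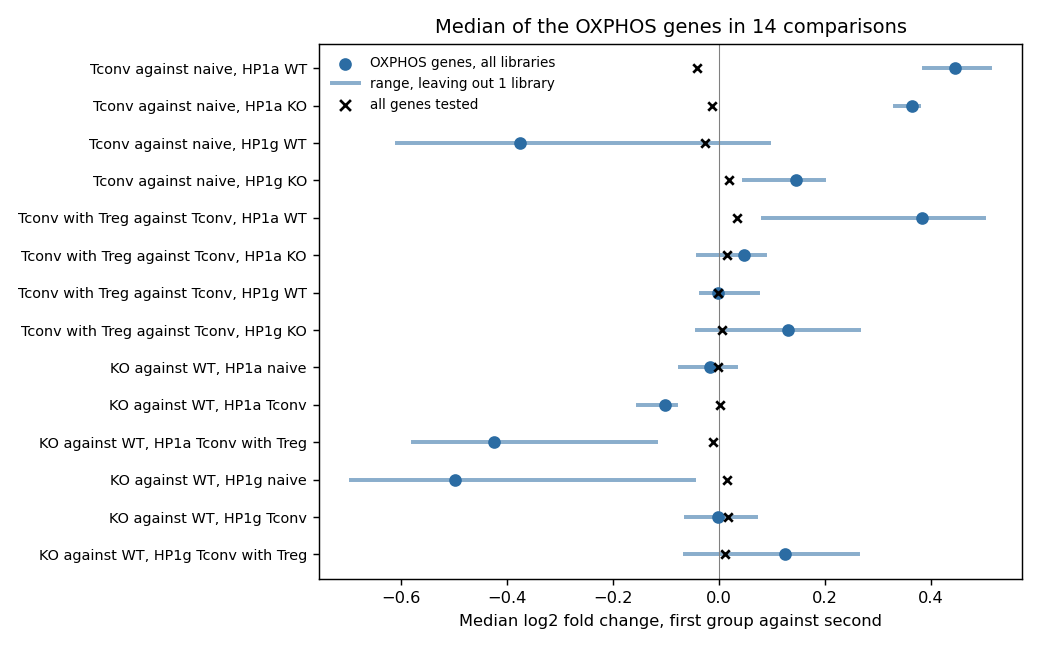
Median log2 fold change of the members in each of the 14 comparisons of 2 groups, as points, with lines for its range when each library is left out in turn and crosses for the median of all genes tested. The medians of activation in the HP1a line stay between 0.33 and 0.51, whereas those of HP1g WT activation (−0.61 to 0.09), of Treg in HP1a WT (0.08 to 0.50) and of KO against WT in HP1g naive cells (−0.69 to −0.05) move with 1 library.

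Whether genotype changed the effects of activation or Treg was tested by interaction terms. For activation, 0 of 78 members were called in the HP1a line (0.00587% of all genes), with 1 at an unadjusted p under 0.05, and the median difference of the effects, KO against WT, was −0.10. In the HP1g line 0 of 79 were called (0.0235% of all genes), with 0 at an unadjusted p under 0.05 and a median of 0.59, which was 0.03 without WT naive replicate 2. For Treg, 0 of 82 were called in the HP1a line (0.145% of all genes), with 2 at an unadjusted p under 0.05 and a median of −0.29, which was 0.00 without WT Treg replicate 3. In the HP1g line 0 of 82 were called (0% of all genes), with 1 at an unadjusted p under 0.05 and a median of 0.10 (−0.08 to 0.29 over libraries left out). DESeq2 called 0 members in these 4 tests. Over all genes tested, an unadjusted p under 0.05 was found for 834 of 17038 and 1344 of 17024 in the activation tests of the HP1a and HP1g lines. In the Treg tests it was found for 1675 of 17205 and 667 of 17833. DESeq2 called 77, 120, 474 and 16 genes in this order. The other calls and p-values are from edgeR's quasi-likelihood test.

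The Treg effect in WT cells was also compared between the lines, with 0 of 82 members called by edgeR's quasi-likelihood test (1.76% of all genes), 8 at an unadjusted p under 0.05 and 2 called by DESeq2 (Cox6b2 and Ndufa10). Cox6b2 had low group means, 0.219 to 0.728 CPM, in the groups compared. The median difference, HP1g against HP1a, was −0.35. Without HP1a WT Treg replicate 3 it was −0.05, and 1 member, Ndufa10, was called with 3.94% of all genes. With all libraries, 2684 of the 17127 genes tested had an unadjusted p under 0.05 and DESeq2 called 1097. Since Treg repressed the WT response poorly in the HP1g experiment, line and experiment, with its Treg ratio, cannot be told apart here.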

How the data were processed

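RNA was measured by SMART-Seq amplification and paired-end sequencing. The authors trimmed and aligned the reads to GRCm39 with STAR and quantified them with Salmon through nf-core/rnaseq. The deposited values are estimated counts per gene, not scaled or filtered by the authors, of which 82.9% were whole, because a read shared by several genes is split among them. Here counts were rounded to whole numbers. Samples were grouped by the line, genotype, condition and replicate number in their titles.

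Members were tested with edgeR's quasi-likelihood test (edgeR 4.0.16, limma 3.58.1, R 4.3.3; TMM, filterByExpr, robust estimation) on the libraries of the groups compared, over all genes tested, with Benjamini-Hochberg adjustment and calls at an adjusted p under 0.05. There were 14 comparisons of 2 groups and 7 interactions, 2 of them added after values had been seen. CPM are on TMM-scaled library sizes. With totals of 37029477 to 63042165 counts, 3 counts correspond to 0.0476 to 0.081 CPM. Scripts were tested on simulated data.

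Members and lists were chosen with earlier results of these data known. In each comparison the called members with the 3 highest and 3 lowest log2 fold changes and a mean of at least 5 CPM were named, with fixed anchor and isoform genes, the 5 highest levels, members not passing the filter, and at most 4 called genes of a neighbour list.

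Alternatives were DESeq2 1.42.0 (the tool of the study), RLE size factors, no filter, the fold threshold of the study, all 35 libraries in 1 fit, a block for replicate number, the excluded library put back, each replicate left out and, chosen after seeing the data, 33 libraries without the 2 that stand apart. Replicate numbers were taken to pair libraries where every correlation of deviations from the group means over 3 pairs exceeded 0.1, which held for KO against WT in HP1a naive cells (0.287 to 0.654) and in HP1g Tconv (0.112 to 0.431). Lengths and positions are from GENCODE on GRCm39, where 17 member symbols differ from the deposited ones, and promoters from RefSeq on GRCm38.p6. ATAC-seq libraries were not analysed here. The levels of 1 B cell marker and of the naive T cell markers are not reported here.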

Additional observations from a re-analysis of the deposited data

How the results depend on the processing

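The number of called members in activation moved with the libraries fitted and with the fold threshold. With all 35 libraries in 1 fit they were 25 in HP1a WT, 9 in HP1a KO, 16 in HP1g WT and 4 in HP1g KO, with 10 for Treg in HP1a WT, 1 for KO against WT in HP1g with Treg and 1 for the line by Treg test, and the cause was not tested. Of all genes, 31.9%, 27.7%, 34.1% and 30.8% were called for activation in that fit and 18.1%, 2.21% and 3.26% in the other tests. In 33 libraries, without the 2 that stand apart (chosen after seeing the data), they were 61, 48, 17 and 23 for activation, and 3, 2 and 1 for the other tests, with 40.4%, 36.1%, 32.1% and 38.5%, and 16%, 4.25% and 4.38%, of all genes. DESeq2 called 4 for Treg in HP1a WT, 1 for Treg in HP1a KO, 1 for KO against WT in HP1g with Treg and 2 for line by Treg. Over all genes it called 2444, 1056, 846 and 1097 in these tests. Without a filter, 2 were called for HP1g WT activation and 1 for Treg in HP1a WT. The fold threshold left 2, 0 and 1 for activation in HP1a WT, HP1a KO and HP1g KO, since it removes small changes by construction. RLE size factors changed no count by more than 1.5 times.

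Leaving out each replicate gave 45 to 67 calls for HP1a WT activation, 39 to 53 for HP1a KO, 0 to 16 for HP1g WT and 8 to 32 for HP1g KO. It gave 0 to 8 for Treg in HP1a WT, 0 to 1 for KO against WT in HP1g with Treg and 0 to 1 for line by Treg, and 0 in the 14 other tests. Where this left 1 library in a group, that library was assumed to vary like the others. The replicate block gave 54, 53, 1 and 15 calls for activation in HP1a WT, HP1a KO, HP1g WT and HP1g KO, and 0 elsewhere, paired comparisons included. With the excluded library put back, 0 members were called in the 3 tests it enters, and the median became −0.40 for Treg in HP1g KO and −0.39 for KO against WT in HP1g with Treg.

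For 43 calls of single genes, 473 alternative values were computed, of which 412 stayed past the threshold, 61 lost the call and 0 changed direction. DESeq2 and RLE size factors lost none of them, the fit of all 35 libraries lost 22, the replicate block 2 (Cox4i1 and Ndufv1 in HP1a WT) and left-out replicates 36. Groups of 2 or 3 libraries limit every comparison, and members near the floor of 3 counts have no usable fold change.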
